A study of Arabidopsis thaliana with 12 samples.

Results

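The 10 genes described here serve the cellulose and pectin of the primary wall, the thin wall that surrounds growing plant cells. They are the cellulose synthase genes CESA1 (AT4G32410_at), CESA2 (AT4G39350_at), CESA3 (AT5G05170_at), CESA5 (AT5G09870_at) and CESA6 (AT5G64740_at), the cellulose synthesis genes COB (AT5G60920_at), CSI1 (AT2G22125_at), KOR1 (AT5G49720_at) and SHV3 (AT4G26690_at), and the pectin methylesterase gene PME3 (AT3G14310_at). They were taken by locus code from a named list, and all 10 were found among the 21461 probe sets tested, 1 probe set per gene. Probe sets on the array carry locus codes, and the names of the 10 were matched to RefSeq locus tags, where CESA3 is listed as CEV1 and KOR1 as GH9A1.

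Cellulose is spun out at the plasma membrane by complexes of CESA proteins that move along cortical microtubules. In Arabidopsis, CESA1 and CESA3 are needed in every primary-wall complex, while CESA6, CESA2 and CESA5 share a position and can in part replace each other. COB, a protein anchored to the outer face of the membrane, keeps the deposition of cellulose oriented, CSI1 links the complex to microtubules, and KOR1 is a membrane-bound cellulase that the complex needs. SHV3 is a membrane-anchored protein related to glycerophosphodiester phosphodiesterases and is needed for normal cellulose content. Pectin is the gel between the cellulose fibrils, and pectin methylesterases such as PME3 remove methyl groups from it.

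Expression was measured in wild-type Columbia Arabidopsis, in young leaves of plants kept at 22 °C with 10 h of light. Under moderate drought, watering stopped 30 days after sowing, pots were kept at 30% of field capacity from then on, and leaves were harvested on day 1 and day 10. Under progressive drought, watering stopped 35 days after sowing and leaves were harvested on the first day of wilting. Each harvest had its own well-watered control, and each of the 6 groups had 2 arrays, each from a separate pool of 5 plants. A whole-leaf pool holds all leaf cell types, so fewer cells of a type and less RNA per cell cannot be told apart.

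The files hold RMA log2 expression values, for which the number of arrays rather than a read depth limits the precision. The 3 harvests had been normalised separately, so levels are given within a harvest and never compared between harvests. The spread between replicates, as a root mean square SD over all probe sets, rose from 0.12 and 0.15 log2 units on day 1 to 0.15 and 0.21 on day 10 and 0.31 and 0.37 at wilting, control first. Tests were made with limma on all 12 arrays, which pools that spread and so sets it too low for wilting and too high for day 1. Results at wilting are therefore also given with array weights and with the 4 wilting arrays alone. With 2 arrays per group both replicates got the same weight, 0.41 for the wilted arrays and 0.74 for their controls. The weights thus let noisy groups count less and changed the SE of a difference, not the difference. They could not give less weight to a single discrepant array. Changes are log2 differences, drought minus control, with a standard error (SE) after the ± sign and n = 2 arrays per group, and p-values are Benjamini-Hochberg adjusted over all 21461 probe sets. The leaf label was checked against markers: RCA, which activates the carbon-fixing enzyme and was the 1 mesophyll marker measured, stood between 12.13 and 13.41 on all arrays, and 0 of 4 root markers had a group mean above the array median. Of 6 shoot apex and flower markers, 0 were above it on day 1, and 1 in control and in drought on day 10 and at wilting.

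At wilting, most of the 10 genes were expressed at a lower level in young leaves, among them 3 of the 5 cellulose synthases, COB, CSI1, SHV3 and PME3. Of the 10, 7 fell, 0 rose and 3 did not pass, while 14.5% of all probe sets fell and 27.0% were called in either direction. The median difference of the 10 was −0.87, against 0.00 over all probe sets. The falls spanned a wide range, from 11.8-fold for PME3 to 1.34-fold for CESA3. With array weights 6 of the 10 fell (10.8% of all probe sets), and with the 4 wilting arrays alone 3 fell, CESA5, SHV3 and PME3 (4.59% of all probe sets).

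Moderate drought left far fewer calls. On day 1 limma called 0 of the 10 (0.0186% of all probe sets were called). Unadjusted p was under 0.05 for 1 of the 10 and for 1865 of all 21461 probe sets. With array weights (0.769% of all probe sets) or the 4 day 1 arrays alone (0.871%) 0 of the 10 passed. On day 10 limma called 1, SHV3, which fell, while 0.0606% of all probe sets fell and 0.107% were called. Array weights also called SHV3 alone (0.736% of all probe sets were called), and the 4 day 10 arrays alone called 0 (0.0%). The median difference of the 10 was −0.03 on day 1 and −0.16 on day 10, against 0.01 and 0.02 over all probe sets.

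**Figure D1:**
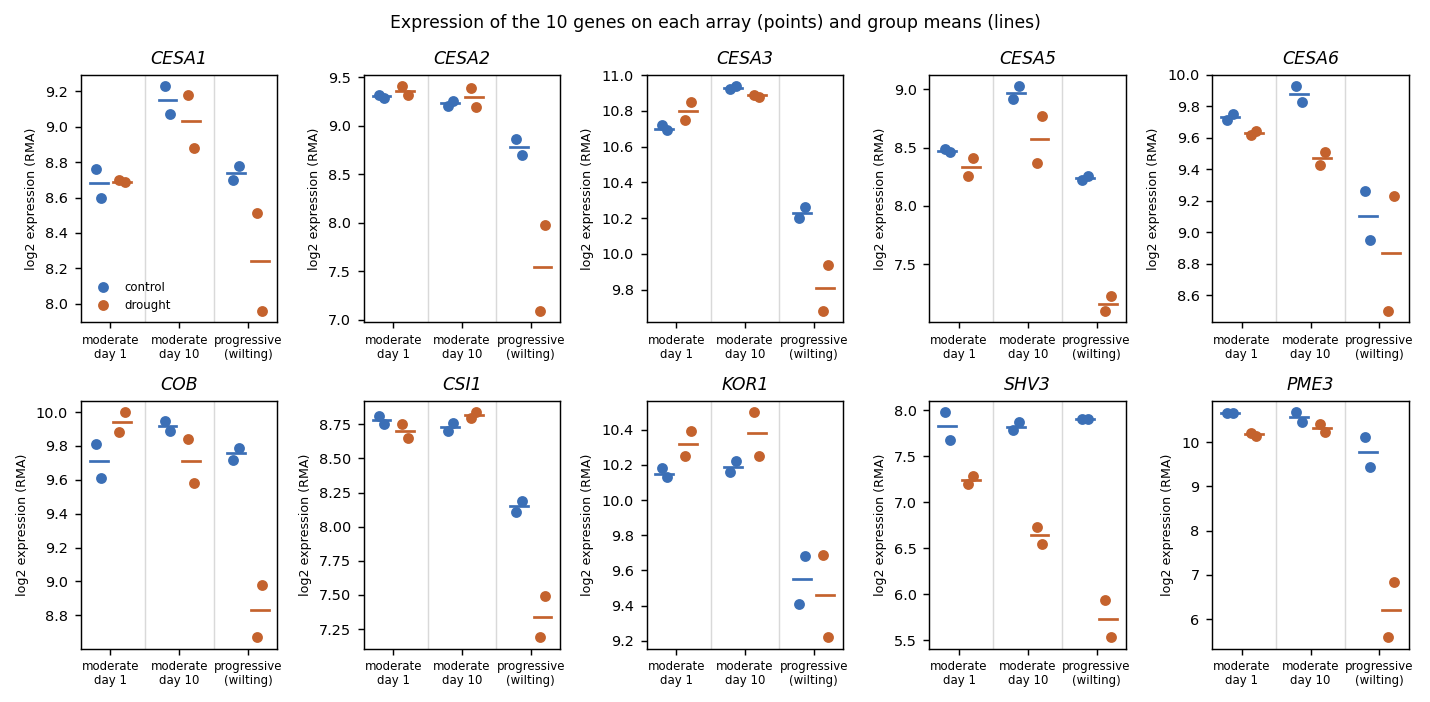
Log2 expression (RMA) of each of the 10 genes on each array, with control arrays in blue and drought arrays in orange, for the 3 harvests; points are single arrays, lines are means of 2 arrays, and each panel has its own vertical scale. SHV3, CESA5 and PME3 lie below their controls in all 3 harvests, and PME3 drops from 10.12 and 9.44 to 5.59 and 6.84 at wilting. Levels are not comparable between harvests.

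Among the catalytic subunits, CESA2 showed the largest difference at wilting. It stood at 8.86 and 8.70 in the controls and at 7.09 and 7.98 in wilted leaves, so both wilted arrays lay below both controls but far from each other. CESA2 fell by 1.24 ± 0.23, or 2.36-fold (adjusted p = 0.0040, array weights 0.0040), and the 4 wilting arrays alone gave an adjusted p of 0.130. Without wilted replicate 1 the difference, then from 1 wilted array, was −0.80.

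At wilting CESA5 was the subunit with the tightest replicates. Its controls were at 8.22 and 8.26 and its wilted arrays at 7.10 and 7.23, with no overlap. CESA5 fell by 1.08 ± 0.14, or 2.12-fold (adjusted p = 4.5e-04), and this passed with array weights (0.0026) and with the 4 wilting arrays alone (0.0273).

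Of the subunits that every primary-wall complex needs, CESA3 passed at wilting and CESA1 did not. CESA3 was at 10.20 and 10.26 in the controls and at 9.68 and 9.94 at wilting. CESA3 fell by 0.42 ± 0.10, or 1.34-fold (adjusted p = 0.0156). That call was lost with array weights (adjusted p = 0.0517), with the 4 wilting arrays alone (0.181) and with cyclic loess (0.187, difference −0.23), and also without control replicate 2 (0.0791) or wilted replicate 1 of this harvest (0.0809). CESA1 was at 8.70 and 8.78 in the controls and at 8.51 and 7.96 at wilting, a difference of −0.51 ± 0.18 that did not pass (adjusted p = 0.0638). Without wilted replicate 1 the difference of CESA1, then from 1 wilted array, was −0.78.

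CESA6, which shares its position in the complex with CESA2 and CESA5, overlapped between the groups. It was at 9.26 and 8.95 in the controls and at 8.50 and 9.23 at wilting. The difference of −0.24 ± 0.21 did not pass (adjusted p = 0.491), and its 95% interval ran from −0.71 to 0.23. It depended on the wilted array used: −0.60 without wilted replicate 2 and 0.125 without wilted replicate 1. Whether the subunits differed from each other in their response was not tested.

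Under moderate drought 0 of the 5 catalytic subunits passed on either day. On day 1 their differences lay between −0.14 for CESA5 and 0.10 for CESA3, with adjusted p from 0.857 to 1.00. On day 10 CESA5 was at 8.92 and 9.03 in the controls and at 8.37 and 8.77 under drought, a difference of −0.41 ± 0.14 (adjusted p = 0.324). CESA6 on the same day was at 9.93 and 9.83 against 9.43 and 9.51, likewise a difference of −0.41 (SE 0.21, adjusted p = 0.567). In both genes the drought arrays lay below the controls, and the 95% intervals ran from −0.71 to −0.10 for CESA5 and from −0.87 to 0.06 for CESA6. These differences were about the size of that of CESA3 at wilting, and neither passed the test over all probe sets, although CESA5 had an unadjusted p of 0.0158. CESA1, CESA2 and CESA3 were at −0.12, 0.06 and −0.04 on day 10.

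Of the partners COB, CSI1 and KOR1, the first 2 fell at wilting and KOR1 did not pass. COB, which orients cellulose deposition, was at 9.72 and 9.79 in the controls and at 8.67 and 8.98 in wilted leaves. COB fell by 0.93 ± 0.14, or 1.91-fold (adjusted p = 0.0011, array weights 0.0051), while the 4 wilting arrays alone gave 0.0538. CSI1, the link to microtubules, was at 8.11 and 8.19 in the controls and at 7.19 and 7.49 at wilting. CSI1 fell by 0.81 ± 0.11, or 1.75-fold (adjusted p = 7.4e-04, array weights 0.0029), and the 4 wilting arrays alone gave 0.0662. For both genes the groups did not overlap.

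KOR1, the cellulase of the complex, had no settled direction at wilting. Its arrays read 9.41 and 9.68 in the controls and 9.69 and 9.22 in wilted leaves, so the groups overlapped. The difference of −0.09 ± 0.17 (adjusted p = 0.792, 95% interval −0.47 to 0.29) became 0.05 with cyclic loess and 0.03 with quantile normalisation over all 12 arrays. On day 1 COB, CSI1 and KOR1 differed from control by 0.23 ± 0.14, −0.08 ± 0.11 and 0.17 ± 0.17. On day 10 they differed by −0.21, 0.09 and 0.19, and none of these moderate-drought differences passed (adjusted p from 0.690 to 0.910).

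The 2 wilted arrays did not rank the genes alike. CESA1, KOR1 and SHV3 were higher on wilted replicate 1, and the other 7 genes were higher on wilted replicate 2. The gap between the wilted arrays was widest for PME3, with an SD of 0.89, and narrowest for CESA5, with an SD of 0.09.

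SHV3 was the 1 gene of the 10 that passed in more than 1 comparison. On day 1 its controls were at 7.98 and 7.68 and its drought arrays at 7.20 and 7.28. The difference of −0.60 ± 0.15 did not pass (adjusted p = 0.295). No drought array reached a control array, but on that day the groups overlapped for CESA1 alone. They did not overlap even for CESA2 at 0.07 or CSI1 at −0.08. On day 10 SHV3 was at 7.78 and 7.87 in the controls and at 6.73 and 6.55 under drought, and at wilting it was at 7.91 and 7.90 against 5.94 and 5.53.

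SHV3 thus fell by 1.18 ± 0.15 on day 10, or 2.27-fold (adjusted p = 0.0427), and by 2.17 ± 0.15 at wilting, or 4.50-fold (adjusted p = 2.2e-05). The wilting call held with array weights (1.1e-04) and with the 4 wilting arrays alone (0.0231). The day 10 call held with array weights (0.0093) and was lost with the 4 day 10 arrays alone (0.0928). It was also lost without any 1 of the 8 moderate-drought arrays, at adjusted p from 0.0788 without day 10 drought replicate 2 to 0.432 without day 10 control replicate 2, while the difference itself stayed between −1.28 and −1.09. Even at wilting SHV3 stood above the array median, at the 62.2 percentile or higher on each array of that harvest.

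PME3 showed the largest change of the 10 genes, and it passed at wilting alone. Its controls in that harvest were at 10.12 and 9.44 and its wilted arrays at 5.59 and 6.84, which left a gap of several units between the groups although replicates differed widely. PME3 fell by 3.57 ± 0.36, or 11.8-fold (adjusted p = 1.2e-04). The call held with array weights (1.5e-04) and with the 4 wilting arrays alone (0.0456).

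On day 1 PME3 read 10.66 on both controls and 10.20 and 10.15 on the drought arrays. That gap was larger than the gap between replicates of that day, but with the spread pooled over all 12 arrays the difference of −0.48 ± 0.36 did not pass (adjusted p = 0.771). Fitted on the day 1 arrays only, its SE was 0.09 and the adjusted p was 0.0806. On day 10 PME3 was at 10.68 and 10.45 against 10.41 and 10.23, a difference of −0.25 ± 0.36 (adjusted p = 0.929).

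**Figure D2:**
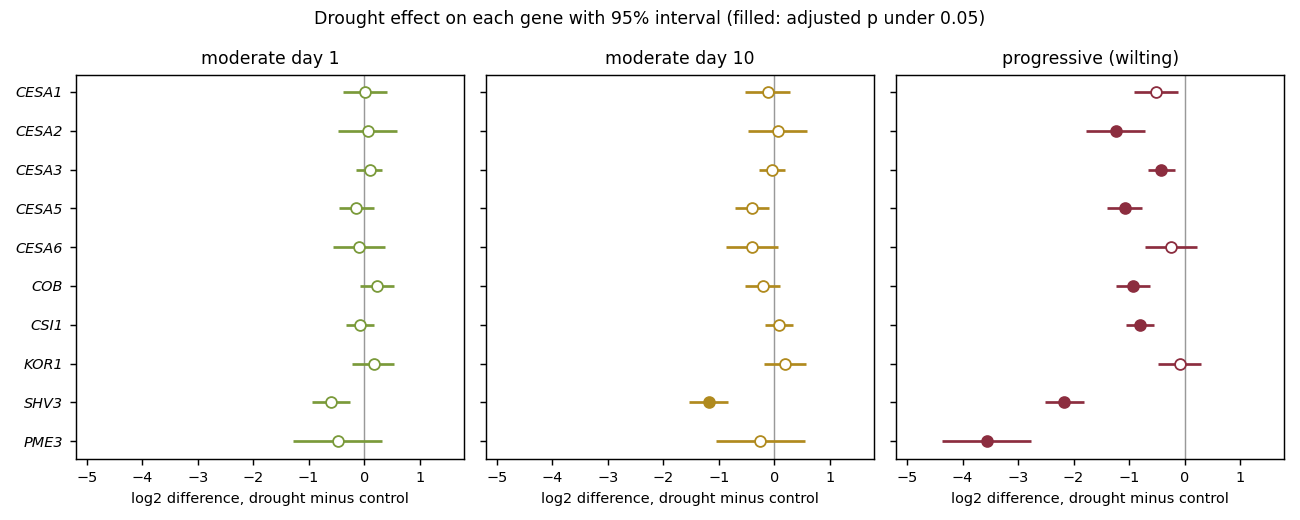
Log2 difference, drought minus control, of each of the 10 genes in the 3 comparisons, from the limma fit of all 12 arrays; points are estimates, bars are 95% intervals and filled points passed an adjusted p of 0.05. At wilting the estimates run from −3.57 for PME3 to −0.09 for KOR1, while on day 10 SHV3 at −1.18 is the only filled point and day 1 has none.

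Whether the genes responded more strongly at wilting than under moderate drought was tested as a difference between drought effects. Against day 1, 6 of the 10 had a lower effect at wilting, PME3, SHV3, CESA2, COB, CESA5 and CSI1, where 7.26% of all probe sets did. The difference was −3.09 ± 0.50 for PME3 (adjusted p = 0.0053), −1.57 ± 0.22 for SHV3 (0.0025), −1.16 ± 0.19 for COB (0.0057) and −1.31 ± 0.33 for CESA2 (0.0343). For CESA5 it was −0.94 ± 0.19 (0.0140) and for CSI1 −0.73 ± 0.16 (0.0181). The 8 arrays of both harvests alone, with which 5.39% of all probe sets had a lower effect, kept PME3 (adjusted p = 0.0247), SHV3 (0.0131), COB (0.0186) and CESA5 (0.0145), but gave 0.0890 for CESA2 and 0.0563 for CSI1. CESA2 was also lost without any day 1 array, either day 10 control array or either wilting control array (adjusted p from 0.0593 to 0.116), CSI1 without any day 1 array or wilting control replicate 2 (up to 0.0762), and CESA5 without day 1 control replicate 2 (0.0619) or drought replicate 2 (0.0648).

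Against day 10, 5 of the 10 had a lower effect at wilting, where 7.61% of all probe sets did. PME3 differed by −3.32 ± 0.50 (adjusted p = 0.0036), CSI1 by −0.89 ± 0.16 (0.0071), SHV3 by −0.98 ± 0.22 (0.0188), CESA2 by −1.30 ± 0.33 (0.0344) and COB by −0.72 ± 0.19 (0.0430). The 8 arrays of both harvests alone, with which 3.92% of all probe sets had a lower effect, kept PME3 (adjusted p = 0.0308) and CSI1 (0.0379), and gave 0.0543 for SHV3, 0.119 for CESA2 and 0.102 for COB. SHV3 was lost without either day 10 control array or day 10 drought replicate 1 (adjusted p from 0.0571 to 0.0708). CESA2 was lost without any 1 array other than a wilted one. COB was lost without any 1 array other than day 10 drought replicate 2 or wilted replicate 2. These exceptions left 1 array in a group, which then added no spread, so they do not show that the calls hold. Without single arrays the differences ran from −1.75 to −0.86 for CESA2 and from −0.88 to −0.57 for COB. Cyclic loess lost CESA2 against day 1 (0.0567) and day 10 (0.0618) and COB against day 10 (0.116), and array weights lost COB against day 10 (0.0642). CESA5, at −0.67 ± 0.19, missed the threshold (0.0541).

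Between day 10 and day 1 of moderate drought limma found a different effect for 0 of the 10 genes and for 0 of all probe sets (0.0%), and array weights (0.0326% of all probe sets) and the 8 arrays alone (0.0559%) also called 0 of the 10. The widest of these differences was that of SHV3, at −0.59 ± 0.22 (adjusted p = 0.673).

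Other genes of primary-wall cellulose synthesis were followed in a list of 26, of which 25 were measured. At wilting 10 fell and 0 rose, where 14.5% of all probe sets fell and 12.5% rose. The median was −0.45, and 20 of 25 lay below 0, against 49.2% of all probe sets. FEI2 and FEI1, receptor kinases that act on cellulose synthesis in roots, fell by 0.99 ± 0.10 (adjusted p = 1.1e-04) and 1.71 ± 0.26 (0.0011), and AT2G41770, a locus without a symbol in the table used, fell by 0.85 ± 0.10 (3.6e-04). With array weights 8 of the 25 fell and 0 rose, where 10.8% of all probe sets fell and 9.15% rose. With the 4 wilting arrays alone 2 of the 25 fell, FEI2 and AT2G41770, where 4.59% of all probe sets did. On day 1 and day 10 0 of the 25 were called by limma with all 12 arrays, array weights or the 4 arrays alone. On each day 4 had an unadjusted p under 0.05, beside 1865 and 2238 of all 21461 probe sets. The smallest p there belonged to CESA10 (0.53 ± 0.13) and CESA9 (−0.42 ± 0.12), cellulose synthases related to CESA1 and CESA6, on day 1, and to AT5G42860 (−0.69 ± 0.19) and the wall-sensing receptor kinase THE1 (−1.97 ± 0.61) on day 10.

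Genes of pectin synthesis were measured for 31 of 34 listed. At wilting 9 fell, where 14.5% of all probe sets did, and 3 rose, where 12.5% did, so the count of rises was no higher than over all probe sets. The median was −0.24. UDG4, a UDP-glucose dehydrogenase that supplies sugar acids for pectin, fell by 1.87 ± 0.16 (adjusted p = 6.4e-05), and the galacturonosyltransferase family genes GAUT4 and GAUT9 fell by 0.98 ± 0.09 (8.4e-05) and 0.82 ± 0.09 (2.0e-04). In the same family GAUT3 rose by 1.12 ± 0.13 (3.5e-04) and GAUT6 rose by 1.52 ± 0.30 (0.0053). GALS2, a synthase of pectic galactan, rose by 2.14 ± 0.29 (6.6e-04), from 5.39 and 5.77 to 8.12 and 7.32. With array weights 7 fell and 3 rose, where 10.8% of all probe sets fell and 9.15% rose. With the 4 wilting arrays alone 3 fell, UDG4, GAUT4 and GAUT9, and 1 rose, GAUT3, where 4.59% of all probe sets fell and 2.74% rose.

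Under moderate drought limma called 0 of the 31 pectin synthesis genes on either day, and 0 with the 4 arrays of a day alone. Unadjusted p was under 0.05 for 1 and 7 on day 1 and day 10, beside 1865 and 2238 of all 21461 probe sets. With array weights 1 fell on day 10, UDG4, at −0.86 ± 0.16 in the fit of all 12 arrays (adjusted p = 0.120, array weights 0.0467). GAUT10 was at −0.41 ± 0.12 on day 10, and on day 1 GAE4, an epimerase that makes the galacturonic acid donor, was at −0.38 ± 0.13 and UDG4 at 0.35 ± 0.16.

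Pectin modification was followed in 36 measured genes of 37 listed, which hold pectin methylesterases and their inhibitors, polygalacturonases, pectate lyases and acetylesterases. At wilting 10 fell, where 14.5% of all probe sets did, and 5 rose, a share near the 12.5% of all probe sets that rose. The median was −0.13. The 3 falls with the smallest p were those of AT5G63180 (−3.71 ± 0.19), AT3G05910 (−2.22 ± 0.17) and AT5G20740 (−1.37 ± 0.12), loci without a symbol in the table used, at adjusted p of 6.4e-06, 3.4e-05 and 6.1e-05. PME31, another pectin methylesterase, rose by 1.04 ± 0.12 (adjusted p = 3.3e-04), from 6.33 on both controls to 7.54 and 7.19, and AT3G49220 and AT1G23200 rose by 0.99 ± 0.13 (6.1e-04) and 0.98 ± 0.20 (0.0061). PME3 and PME31 therefore changed in opposite directions in the same leaves. With array weights 8 fell and 3 rose, where 10.8% of all probe sets fell and 9.15% rose. With the 4 wilting arrays alone 5 fell and 2 rose, PME31 (adjusted p = 0.0495) and AT3G49220 (0.0311), where 4.59% of all probe sets fell and 2.74% rose.

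On day 1 and day 10 limma called 0 of the 36 pectin modification genes, and 0 with the 4 arrays of a day alone. Unadjusted p was under 0.05 for 6 and 5 of them, beside 1865 and 2238 of all 21461 probe sets. The smallest p on day 10 belonged to AT3G49220 (−0.74 ± 0.13, adjusted p = 0.104) and the acetylesterase gene PAE11 (−0.82 ± 0.17, adjusted p = 0.129). With array weights 1 fell, AT3G49220 (adjusted p = 0.0428). On day 1 AT1G62770 was at 0.35 ± 0.10 and AT1G48100 at 0.63 ± 0.21.

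**Figure D3:**
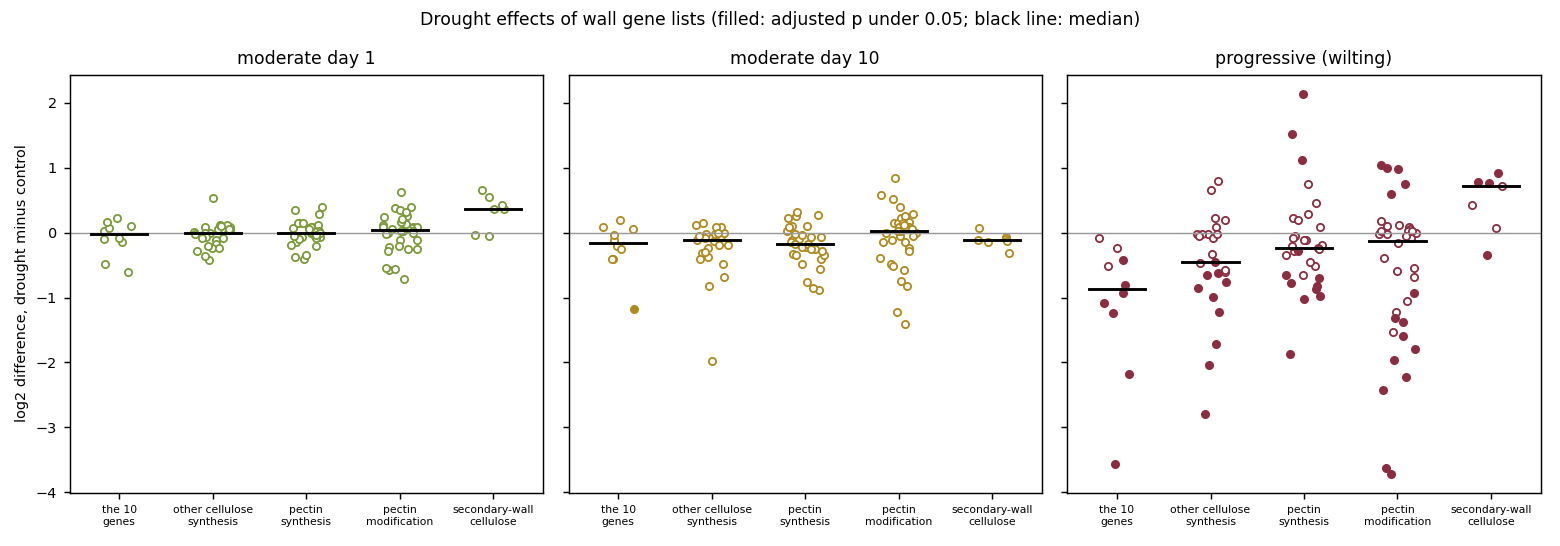
Log2 difference, drought minus control, of single genes in the 10 genes and 4 further wall lists, for the 3 comparisons; each point is a gene, filled where the adjusted p was under 0.05, and black lines are list medians. At wilting the medians run from −0.87 for the 10 genes to 0.72 for secondary-wall cellulose, and the 10 genes include no filled point above 0.

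Among cellulose genes of the secondary wall, the thick wall of xylem and fibres, more rose than fell at wilting. Of 7 measured genes 3 rose, where 12.5% of all probe sets did, and 1 fell, a share near the 14.5% of all probe sets that fell. The median was 0.72. CESA8 was at 4.38 and 4.39 in the controls and at 5.53 and 5.05 at wilting, a rise of 0.91 ± 0.15 (adjusted p = 0.0018). CESA7, also called IRX3, was at 4.31 on both controls and at 5.08 and 5.04 at wilting, a rise of 0.76 ± 0.14 (adjusted p = 0.0031).

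FLA11, an arabinogalactan protein of secondary walls, rose by 0.78 ± 0.24 (adjusted p = 0.0391), and the related FLA12 fell by 0.35 ± 0.10 (0.0348). Array weights kept CESA8 (0.0044) and CESA7 (0.0451) and lost FLA11 (0.0964) and FLA12 (0.146), with 9.15% of all probe sets rising and 10.8% falling in that fit. The 4 wilting arrays alone kept CESA7 (0.0376), with 0.0886 for CESA8, where 2.74% of all probe sets rose. On day 1 limma called 0 of the 7, with CESA7 at 0.54 ± 0.14 (adjusted p = 0.291) and CTL2, a chitinase-like protein, at 0.66 ± 0.25 (0.510). CTL2 passed with the 4 day 1 arrays alone (0.0431). The 4 xylem markers, of which CESA7 is 1, were also at differences of 0.53 to 0.90 on day 1, 0 of them called with all 12 arrays and 1, XCP2, with the 4 day 1 arrays alone (0.0242), and their mean was 5.27 and 5.23 in the controls and 5.84 and 5.94 under drought; their part in the values of the secondary-wall genes was not tested. On day 10 limma also called 0 of the 7 secondary-wall genes, with CESA8 at −0.32 and FLA12 at −0.15. Unadjusted p was under 0.05 for 3 of the 7 on day 1 and for 0 on day 10, beside 1865 and 2238 of all 21461 probe sets.

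Of 30 measured markers of cell types and of dividing cells 5 fell at wilting, a share near the 14.5% of all probe sets that fell, and 1 rose, where 12.5% of all probe sets did. Their part in the falls of the primary-wall genes was not tested. Of 4 markers of dividing cells 2 fell, KNOLLE with a difference of −2.06 ± 0.25 (adjusted p = 3.9e-04) and CYCD3;1 with −1.27 ± 0.17 (7.1e-04), and the mean of the 4 went from 5.70 and 5.42 in the controls to 4.53 and 4.66. RCA fell by 0.67 ± 0.19 (adjusted p = 0.0305, difference −0.20 with cyclic loess). Of 4 guard cell markers 1 fell, the channel gene KAT1, by 1.26 ± 0.26 (0.0069), and the 4 ran from −1.26 to 0.02. Of 4 epidermal markers 1 fell, the factor PDF2, by 0.63 ± 0.16 (0.0154), and the 4 ran from −0.63 to 0.26. The mean of the 4 xylem markers was 4.52 and 4.94 in the controls and 5.36 and 4.94 at wilting, and 1 of them, CESA7, rose. With array weights 5 of the 30 markers fell and 1 rose, where 10.8% of all probe sets fell and 9.15% rose. With the 4 wilting arrays alone the 5 markers that fell with all 12 arrays were not called. Phloem, root, and shoot apex and flower markers had 0 calls among 3, 4 and 6 measured genes with all 12 arrays.

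The genes whose pattern was most like that of the 10 were looked for among all loci with a symbol, by Pearson correlation over 12 arrays with the mean of the 10, after each harvest had been centred on its own mean and each of the 10 scaled to unit variance. They were GHS1 (0.995), a plastid ribosomal protein, APL1 (0.992), a subunit of the enzyme that commits glucose to starch, BCAT3 (0.991), an aminotransferase, HEMB1 (0.990), an enzyme of tetrapyrrole synthesis, and CLPP4 (0.989), a plastid protease subunit. ATERDJ3B, TRXF2 and PRPL11 followed at 0.988. All 8 fell at wilting, with differences from −0.89 for ATERDJ3B to −2.37 for GHS1. The 4 arrays of the wilting harvest carried from 59.3% of the variation of KOR1 to 98.3% of that of CESA2 in this comparison. The likeness therefore rests mostly on them. Over the 8 moderate-drought arrays the same genes correlated at 0.80 to 0.94. Those 8 arrays also took part in the choice of the genes, so these values are no separate test of the likeness.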

How the data were processed

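Total RNA of 12 leaf pools was labelled with biotin and hybridised to ATH1 arrays, per the labels' protocols. The deposited values are log2 expression values that the authors made with RMA, run with the affy package, per the submitters' processing notes; versions and the definition of the probe sets are not stated there. RMA subtracts background, quantile-normalises and summarises probes, which compresses changes of dim genes. Sorted values differed by 0.0501, 0.0586 and 0.0691 log2 units on average within the 4 arrays of day 1, day 10 and wilting, against 0.697 over all 12, so each harvest had been normalised apart. Of 21389 sense loci 21164 were found in the RefSeq table of locus tags, whose coordinates were not used, and 8982 had a symbol.

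After removal of 56 control probe sets, lmFit and eBayes of limma 3.58.1 (R 4.3.3) fitted a mean per group over all 12 arrays. The residual degrees of freedom were 6, and the prior added 2.78. All tests were two-sided, with Benjamini-Hochberg adjustment over 21461 probe sets and a threshold of 0.05. The code was tested on simulated data. With each harvest given its own spread there, a larger share of calls was false than the threshold allows, most of all at wilting. An exact permutation test of 2 against 2 arrays cannot go below 0.333 and was not used. Named were the 10 genes, up to 3 called rises and 3 called falls per further list and comparison with the smallest adjusted p, 2 values where a list had no call, and 8 genes of like pattern. Markers given by name, and list members called under another setting, were chosen after their values were seen. The 10 genes and the lists were chosen with earlier results of these data known. Listed loci without a symbol in the table are given by code.

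The main fit did not pair drought with control arrays by replicate number. Replicate differences of the arms correlated at 0.03, 0.06 and −0.49 on day 1, day 10 and at wilting. Alternatives were the arrays of a comparison alone, array weights, cyclic loess, quantile normalisation over 12 arrays, a filter at the 40th percentile, a trended robust prior, a replicate block and leaving out each array. Leaving out an array left 1 in its group, which then added no spread, so p-values of those fits do not measure that group's spread. Cross-hybridisation between related CESA or PME sequences was not tested. Python 3.11.15 and matplotlib 3.10.9 drew the figures.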

Additional observations from a re-analysis of the deposited data

Results flagged for a closer look

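The drought effect differed between harvests for 6 of the 10 genes, by limma's test of the difference between effects. With the 8 arrays of both harvests alone 4 of these remained against day 1 and 2 against day 10. Over all probe sets, 7.26% had a lower effect at wilting than on day 1 and 7.61% a lower one than on day 10. Wilting minus day 1 gave −3.09 for PME3, −1.57 for SHV3, −1.31 for CESA2, −1.16 for COB, −0.94 for CESA5 and −0.73 for CSI1, in log2 units. Wilting minus day 10 gave −3.32 for PME3, −1.30 for CESA2, −0.98 for SHV3, −0.89 for CSI1 and −0.72 for COB. Harvests differ in drought regime, plant age and replicate spread, which cannot be told apart. With 2 arrays per group no array could be tested as an outlier.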

How the results depend on the processing

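Each result was recomputed under 20 alternatives, of which the block with crossed replicate numbers was chosen after seeing the data. Of 1895 recomputed values of single named genes, 1756 kept direction and side of the threshold, 105 lost the threshold, 12 gained it and 22 changed sign. Many of these values belong to effects that were not called with all 12 arrays, which could not lose the threshold. Causes were not tested.

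The number of the 10 genes called moved as follows. In this and the next paragraph most smaller moves are left out. On day 10 it was 1, and 0 with the arrays of the comparison alone or with the replicate block, and 0 to 1 without single arrays. At wilting it was 7, and 3 with the arrays alone. It was 6 with array weights, cyclic loess, quantile normalisation or the trended robust prior. For wilting against day 1 it was 6, and 3 with the replicate block, and 3 to 7 without single arrays. For wilting against day 10 it was 5, and 2 with the arrays alone or the replicate block, 3 with cyclic loess or quantile normalisation, and 2 to 7 without single arrays.

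Over all probe sets, day 1 gave 4 calls, and 187 with the arrays alone, 165 with array weights, 24 with the trended robust prior, 1 with the replicate block and 1 to 31 without single arrays. Day 10 gave 23, and 0 with the arrays alone or the replicate block, 158 with array weights, 15 with cyclic loess, 49 with the trended robust prior and 0 to 92 without single arrays. Wilting gave 5797, and 1575 with the arrays alone. Day 10 against day 1 gave 0, and 12 with the arrays alone, 7 with array weights and 0 to 1 without single arrays. Wilting against day 1 gave 2688, and 1365 with the replicate block and 1232 to 3974 without single arrays. Wilting against day 10 gave 2637, and 1312 with the arrays alone, 1435 with the replicate block and 1392 to 3976 without single arrays. Crossed numbers in the replicate block at wilting gave 8, 213 and 1 calls for day 1, day 10 and their difference. At wilting the crossed numbers gave 8 calls among the 10 genes and 6532 over all probe sets. Why calls changed under either block was not tested.

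None of the sign changes was in a called effect. KOR1 at wilting became 0.052 with cyclic loess and 0.027 with quantile normalisation, CESA3 on day 10 became 0.013 and CESA2 in day 10 against day 1 became 0.044 with quantile normalisation. Without single arrays, the following values crossed 0: CESA1 on day 1 (−0.063 to 0.094) and day 10 (−0.27 to 0.027), CESA2 on day 10 (−0.038 to 0.164), and at wilting CESA6 (−0.603 to 0.125) and KOR1 (−0.325 to 0.146). Among differences of effects, day 10 against day 1 crossed 0 for CESA1 (−0.286 to 0.011), CESA2 (−0.104 to 0.099) and KOR1 (−0.107 to 0.149), and CESA6 did so for wilting against day 1 (−0.501 to 0.227) and against day 10 (−0.197 to 0.531).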
